A study of Mus musculus with 8 samples.

Results

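A set of 10 genes of mitochondrial fatty acid oxidation and of its PPAR regulators were followed in activated muscle stem cells (ASCs) that carried or lacked Mfn2. They were chosen by name from the 18877 gene symbols of the expression table, and all 10 were in it: Cpt1a, Cpt1b, Cpt2, Acadm, Acadl, Acadvl, Hadha, Hadhb, Ppara and Ppard. The rule itself used no expression value. The whole set was examined in RNA-seq of 4 wild-type and 4 mfn2-/- libraries of ASCs, which are the stem cells that muscle keeps in reserve, taken after they have left quiescence.

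All animals carried a mito-Dendra2 allele, a fluorescent protein sent to mitochondria, which the Pax7-CreERT2 driver switched on after tamoxifen (75 mg/kg in 5 daily doses). Both genotypes received that treatment, and 2 days after its end the tibialis anterior was injured with 50 uL of 1.2% BaCl2. A further 2 days later CD34-, Dendra2+ and DAPI- cells were sorted. The driver acts in cells that express Pax7, so deletion was limited to muscle stem cells and their progeny, and RNA of any other cell in the gate came from cells in which deletion was not designed. Age, sex and the number of animals behind a library were not given in the sources used here, so p-values measure the spread between libraries, which may be partly technical. Per the labels all cells were one tissue, and the stem cell genes Pax7 and Myf5 were present in all 8 libraries.

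Fatty acids are burned in mitochondria after they are bound to coenzyme A. Long chains cross into the matrix as carnitine esters, made by CPT1 at the outer membrane and undone by CPT2 at the inner membrane. Each turn of β-oxidation then starts with an acyl-CoA dehydrogenase suited to the chain length and, for long chains, continues on the trifunctional protein built from HADHA and HADHB. The nuclear receptors PPARα and PPARδ bind fatty acids and, with a retinoid X receptor, activate genes of this pathway. In muscle stem cells the pathway is known for its use in quiescence, and activation is known to shift cells toward glycolysis.

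The libraries held 1880464 to 7508215 reads, with the fewest in wild-type replicate 1 and, among mfn2-/-, 2269009 in replicate 4. That mfn2-/- library also detected the fewest genes, 9646 against 12613 to 15270 in the others. No Y-linked reads were found in the first 2 wild-type and the last 2 mfn2-/- libraries, by replicate number, whereas the other 4 libraries had 807 to 2336, so changes are also given within each kind, with 2 libraries a group. Mfn2 itself had 202 to 245 normalized reads in wild-type and 104 to 172 in mfn2-/- ASCs, which gave a log2 change of -0.88 with a limma adjusted p of 0.0848. Hif1a, the oxygen-regulated transcription factor, had 634 to 1089 in wild-type and 2320 to 3366 in mfn2-/- libraries, and its log2 change of 1.85 had an adjusted p of 7.97e-05. The genotypes also differed in markers of other cells. Of 8 fibroadipogenic genes 7 were lower in mfn2-/-, with a summed level of 193530 to 252244 in wild-type and 5283 to 9487 in mfn2-/- ASCs, and Ly6a, a defining gene of that list, had 0 to 27.0 in wild-type and 14.7 to 51.6 in mfn2-/- ASCs. All 8 tenocyte genes were lower, with sums of 36938 to 58437 against 306 to 407, and Chad was at 0 in 3 mfn2-/- libraries. Of 7 muscle stem cell genes 3 were higher, Myod1, Vcam1 and Des (list sums of 4939 to 8208 against 11549 to 17830). Des alone had 1376 to 3104 against 5275 to 11504. The defining genes Pax7 and Myf5 had log2 changes of 0.10 and 0.07 (limma adjusted p = 0.780 and 0.896), and Itga7 had -0.87 (0.110). Of 7 myofiber genes 2 were higher, Myh1 and Myh4 (sums of 1108 to 2350 against 2437 to 3682), whereas Actn3 had -0.52 (0.271). Of the adipocyte list 1 of 3 tested genes was lower, Lpl, with sums over 5 genes of 941 to 1918 against 511 to 866, and its defining genes Plin1 and Lep were at 0 in 5 and 6 libraries. The 5 endothelial genes (848 to 1244 against 949 to 1501) gave 0 calls, as did the 3 tested of 5 macrophage genes, whose sum over all 5 was 29.4 to 93.2 against 71.1 to 116. In bulk RNA, fewer cells of a type and less RNA per cell cannot be told apart, and the part of these markers in the results below was not tested.

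Values below are normalized read counts, in which the reads of a library had been divided by one size factor. Changes are differences of the mean log2(value + 1), mfn2-/- minus wild-type, and adjusted p-values are those of limma over 11754 genes tested. The added 1 dampens the change of weak genes. Where a library is at 0, the change can still be larger than the group means give, as for Hadhb (-1.66, ratio of means 0.476). The exact permutation test of a single gene over 70 arrangements is two-sided and cannot go below 0.0286.

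The sequences in front of 4 of the genes are given as examples and do not stand for all members. The letters are RefSeq promoter sequence (GRCm38.p6), which is not the mm9 build named in the submitters' processing notes, and of the 250 bases before the start only the stretch outside annotated exons is given. Capitals mark matches on either strand to the GC box GGGCGG, the nuclear receptor motif AGGTCA, the CCAAT box or the hypoxia core ACGTG. Cpt1a and Acadl are shown as the members with the highest levels per length of annotated exon, Hadhb for its window, which overlaps that of Hadha, and Ppard as the receptor with the highest level.
Cpt1a, chr19:3323051-3323284, plus strand: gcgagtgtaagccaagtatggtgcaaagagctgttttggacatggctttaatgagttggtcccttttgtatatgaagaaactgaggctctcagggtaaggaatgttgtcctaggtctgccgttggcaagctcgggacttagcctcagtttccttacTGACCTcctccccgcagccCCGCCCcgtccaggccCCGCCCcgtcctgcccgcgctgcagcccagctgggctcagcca
Acadl, chr1:66863310-66863559, minus strand: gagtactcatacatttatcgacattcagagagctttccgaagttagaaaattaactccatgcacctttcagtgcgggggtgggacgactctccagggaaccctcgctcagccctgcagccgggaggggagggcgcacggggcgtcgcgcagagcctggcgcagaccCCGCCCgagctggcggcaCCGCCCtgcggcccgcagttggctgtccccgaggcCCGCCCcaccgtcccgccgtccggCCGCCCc
Hadhb, chr5:30155163-30155247, plus strand: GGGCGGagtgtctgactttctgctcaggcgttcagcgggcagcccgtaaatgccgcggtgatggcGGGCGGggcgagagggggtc
Ppard, chr17:28232504-28232699, plus strand: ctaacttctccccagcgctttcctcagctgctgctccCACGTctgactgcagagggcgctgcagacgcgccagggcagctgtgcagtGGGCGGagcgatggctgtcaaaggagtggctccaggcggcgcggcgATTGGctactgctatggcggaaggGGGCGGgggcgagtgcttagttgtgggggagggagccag
Of the 10 members 9 matched a promoter in the RefSeq table, all except Cpt1b. In the 250 bases before the start, 7 of the 9 (77.8%), all but Acadm and Acadvl, held a GC box, against 32.7% of 32851 promoter windows of the same length. Those 7 windows were 56.8 to 76.4% G or C, where the median of all windows was 52.4%. The part of base composition in the share with a GC box was not tested. Hadha and Hadhb start 273 bases apart on opposite strands and their windows share 228 bases, so their GC boxes are partly the same letters. The nuclear receptor motif stood in 3 of 9 (Acadm, Acadvl and Cpt1a), against 14% of all windows. The full PPAR element, searched on both strands as that motif repeated after 1 base of any kind, was in 0 of 9 and in 0.0335% of all windows. The hypoxia core was in 2 of 9 (Acadvl and Ppard) against 16.6%, and the CCAAT box in 2 of 9 (Cpt1a, where it runs past the end of the stretch shown, and Ppard) against 33.8%. The estrogen-related receptor element TCAAGGTCA (0.387% of all windows) and the E-box CACGTG (6.02%), which contains the hypoxia core, were in 0 of 9. A match describes letters and does not show binding.

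Across the set, 0 of the 9 members that could be tested changed between genotypes at an adjusted p under 0.05. The background was 10.4% of all genes tested, or 1217 of 11754, with 469 higher (3.99%) and 748 lower (6.36%). With upper-quartile scaling these were 844 higher and 632 lower. On the recovered reads edgeR and DESeq2 called 1158 and 1738 of all genes, and each called 0 members. Before adjustment 1 member, Acadl, was under 0.05 by limma, where 24.8% of all genes were. Cpt1b had a mean under 10 and was not tested. The log2 changes of the 9 ranged from -1.66 for Hadhb to 0.87 for Acadl, with 5 above 0 and 4 below. Their median was 0.05 against -0.16 for all genes tested. That median is the value of Ppara, a weakly counted gene with an SE of 1.37. Upper-quartile and quantile normalization moved the median of all genes to 0.04 and 0.07, so small changes are to be read relative to that shift.

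**Figure D1:**
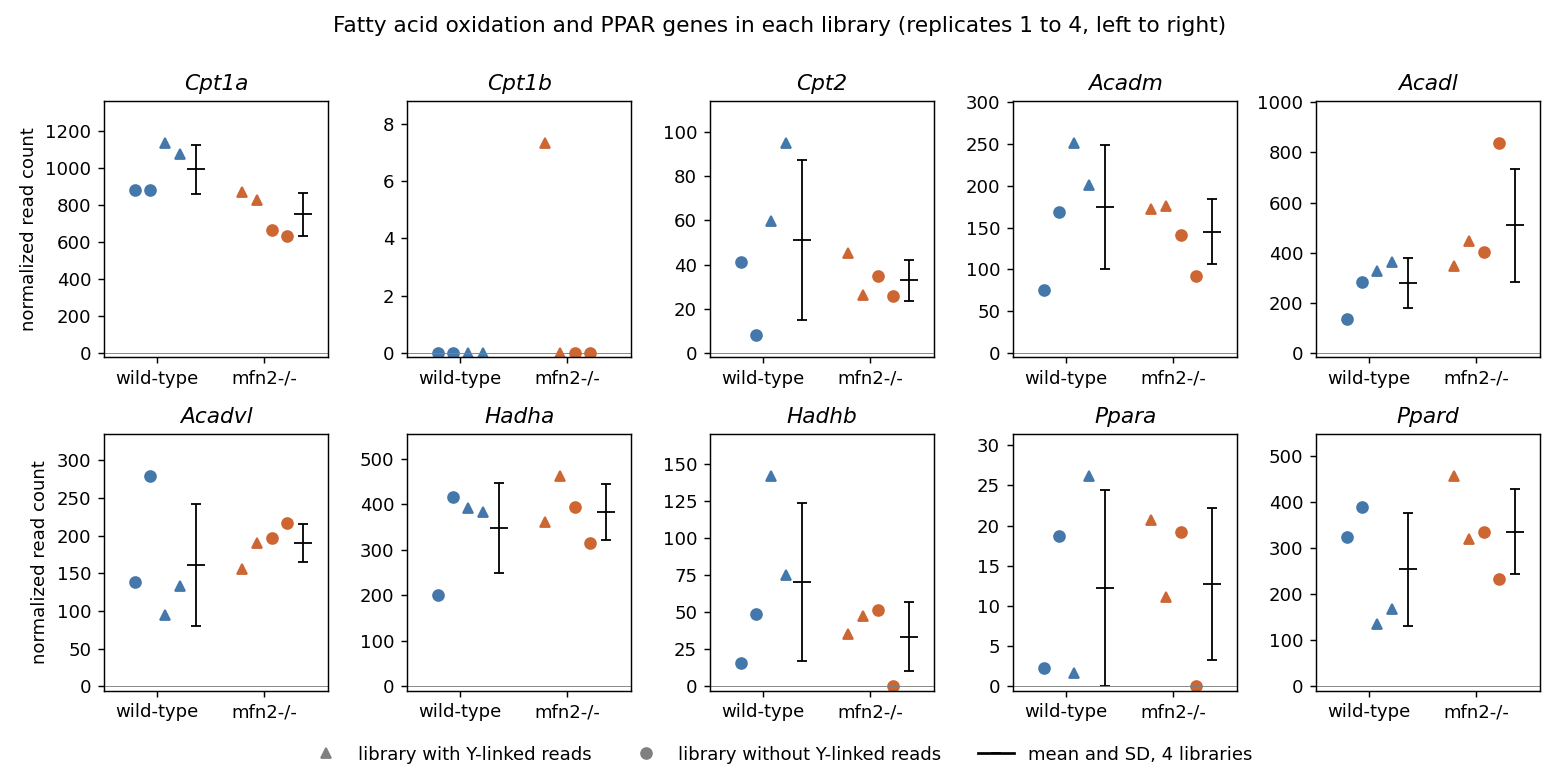
Normalized read counts of the 10 genes in each of the 8 libraries, one panel per gene and its own linear axis from 0. Triangles are libraries with Y-linked reads and circles those without, and bars give the mean and SD of 4 libraries (no bar for Cpt1b, which had reads in 1 library). Cpt1a is the one panel in which the groups do not overlap, with wild-type libraries at 878 to 1137 and mfn2-/- libraries at 634 to 871.

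The 2 receptors differed in level. Ppara, the PPAR that drives fatty acid oxidation in liver and heart, was near the limit of detection. Wild-type libraries had 2.27, 18.7, 1.63 and 26.2 normalized reads and mfn2-/- libraries 20.7, 11.1, 19.2 and 0, which are 1, 18, 2 and 49 reads against 31, 14, 26 and 0. In all, 3 of the 8 libraries were thus at or under 3 reads, and both groups spanned the same range. Means were 12.2 ± 12.2 and 12.7 ± 9.47 (SD, n = 4), the log2 change was 0.05 (SE 1.37, 95% interval -2.90 to 3.00) and the adjusted p was 0.988. At these counts a change of several-fold in either direction was not detectable.

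Ppard, the more widely expressed PPAR and the main one of skeletal muscle, was measured well in every library. Wild-type libraries had 325, 391, 135 and 169 and mfn2-/- libraries 457, 322, 335 and 233. The groups overlapped, and the low values were those of wild-type replicates 3 and 4. Means were 255 ± 123 and 337 ± 92.4, with a log2 change of 0.49 (SE 0.36, -0.28 to 1.27), an adjusted p of 0.429 and an exact permutation p of 0.286. Within the libraries with Y-linked reads the log2 change was 1.34 and within those without it was -0.35. That difference, 1.69 (SE 0.48), was past 0.05 in the limma interaction test before adjustment but not after it (adjusted p = 0.160). With libraries weighted by their quality, Ppard had a log2 change of 0.97 and an adjusted p of 0.00700, the one setting of 22 in which any member was called. That setting called 3037 of the 11754 genes tested, against 1217 in the main setting, so 1 call among 9 members is to be read beside that share.

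The carnitine gate comes next. Cpt1a, the broadly expressed form of the rate-limiting carnitine palmitoyltransferase, was the most highly counted member, above 93.2% of the genes tested. Wild-type libraries had 882, 878, 1137 and 1076 and mfn2-/- libraries 871, 826, 666 and 634. Every mfn2-/- library was below every wild-type library, although the nearest pair, 878 and 871, differed by less than the spread within either group. Among all genes tested 12.2% were separated downward in this way, 7.36% upward and 19.5% in either direction, and among the 9 tested members 1. Means were 993 ± 133 and 750 ± 117, a ratio of 0.755, with a log2 change of -0.41 (SE 0.19, -0.82 to 0.00). The unadjusted p was 0.0517, the adjusted p 0.206 and the exact permutation p 0.0286, the smallest that test can give. The change was -0.38 and -0.44 in libraries with and without Y-linked reads (adjusted p of the limma interaction 0.944). Leaving out each library in turn kept it between -0.49 and -0.33. Of the summed reads of the 10 members, Cpt1a took 35.2 to 48.6% in wild-type and 26.9 to 35.2% in mfn2-/- libraries. The ranges overlapped slightly, with 35.20% in wild-type replicate 2 and 35.25% in mfn2-/- replicate 1. This share is not per length and also moves with the reads of the other members.

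Cpt1b, the form of adult muscle and heart, was listed at 0 in 7 of 8 libraries. The remaining one, mfn2-/- replicate 1, had 11 reads or 7.33 normalized reads. A count of 0 allows up to 3 reads in a library, so no fold is given. Of its 3372 exon bases, 2744 are shared with the readthrough gene Gm44502 on the same strand (GENCODE M21), which was not analysed here. Reads of that stretch may not have been counted for Cpt1b, so its values of 0 do not show that its RNA was absent.

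Cpt2, which returns the acyl group to coenzyme A in the matrix, was weak and variable. Wild-type libraries had 40.9, 8.30, 59.6 and 95.1 and mfn2-/- libraries 45.3, 26.1, 34.6 and 25.7, so all mfn2-/- values fell inside the wild-type range. Means were 51.0 ± 36.3 and 32.9 ± 9.25, with a log2 change of -0.23 (SE 0.85, -2.08 to 1.61) and an adjusted p of 0.893. The sign differed between libraries with and without Y-linked reads, -1.11 and 0.64.

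The acyl-CoA dehydrogenases followed no common direction. Acadl, the long-chain enzyme in rodents, had 136, 285, 326 and 364 in wild-type and 346, 446, 404 and 839 in mfn2-/- ASCs. The values overlapped only between wild-type replicate 4 and mfn2-/- replicate 1, and the extremes were the 2 shallowest libraries, wild-type replicate 1 and mfn2-/- replicate 4. Means were 278 ± 99.7 and 509 ± 224, a ratio of 1.83, with a log2 change of 0.87 (SE 0.35, 0.12 to 1.63). The unadjusted p was 0.0271, the adjusted p 0.140 and the exact permutation p 0.0571. The change was 0.19 in libraries with and 1.56 in libraries without Y-linked reads, and the interaction of -1.37 (SE 0.60) was past 0.05 in limma before adjustment but not after it (adjusted p = 0.403). Without those 2 shallowest libraries, an alternative chosen after the data had been seen, the change was 0.29.

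Acadm encodes the medium-chain enzyme. Wild-type libraries had 75.0, 169, 252 and 201 and mfn2-/- libraries 172, 175, 141 and 91.6, with the lowest value of each group in its shallowest library. Means were 174 ± 74.3 and 145 ± 38.8, with a log2 change of -0.18 (SE 0.42, -1.08 to 0.72), an adjusted p of 0.83 and changes of -0.37 and 0.01 by kind of library. A processed pseudogene, Gm5131, matches 681 bases of the transcript at 93.5% identity and was not analysed here, so reads could be split between them.

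Acadvl, the very-long-chain enzyme bound to the inner membrane, had 139, 279, 94.7 and 134 in wild-type and 155, 190, 197 and 216 in mfn2-/- ASCs. The mfn2-/- values lay above 3 of the 4 wild-type libraries and below the other. Means were 161 ± 80.7 and 190 ± 25.5, with a log2 change of 0.34 (SE 0.36, -0.44 to 1.12), an adjusted p of 0.604 and an exact permutation p of 0.343. Its exons share 1151 bases with those of Dvl2 on the opposite strand. Dvl2 had 480, 375, 160 and 108 in wild-type and 70.7, 58.5, 41.3 and 0 in mfn2-/- ASCs, with a log2 change of -3.53 and an adjusted p of 0.0702. The kit keeps strand but the strand setting of the counting was not given in the sources used here, so reads of these genes may not be separated.

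Hadha, the subunit with the hydratase and the long-chain hydroxyacyl-CoA dehydrogenase, was among the steadiest members. Wild-type libraries had 200, 417, 391 and 384 and mfn2-/- libraries 361, 462, 394 and 315. One library stood apart, wild-type replicate 1, and the other 7 lay between 315 and 462. Means were 348 ± 99.6 and 383 ± 61.8, with a log2 change of 0.18 (SE 0.27, -0.41 to 0.77) and an adjusted p of 0.730. Without wild-type replicate 1 the log2 change was -0.07.

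Hadhb, the thiolase subunit of the same complex, had 15.9, 48.7, 142 and 75.3 in wild-type and 35.3, 47.4, 51.6 and 0 in mfn2-/- ASCs. Means were 70.5 ± 53.5 and 33.6 ± 23.4, with a log2 change of -1.66 (SE 1.26, -4.39 to 1.07), an adjusted p of 0.454 and an exact permutation p of 0.371. Much of that change came with the 0 of mfn2-/- replicate 4, where a count of 0 allows 3 reads, and without that library the change was -0.28. Stretches of 200 to 226 bases of its transcript match other transcripts at 90% identity or more, so some reads may be shared.

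**Figure D2:**
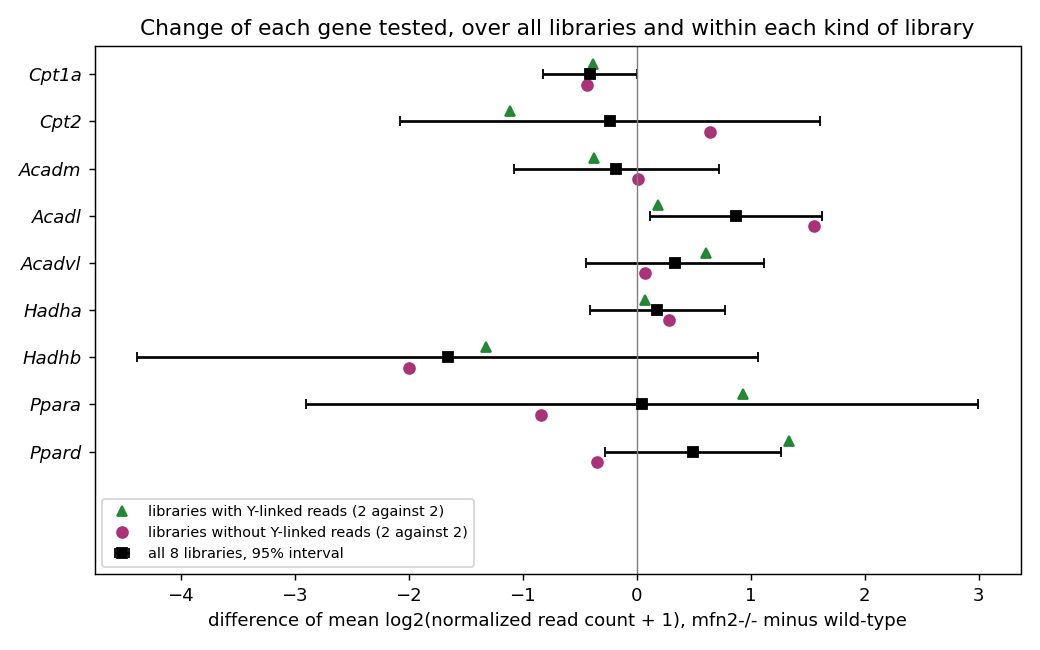
Log2 change (mfn2-/- minus wild-type, log2(normalized count + 1)) of the 9 tested members with 95% limma intervals, and beside each the change within libraries with and without Y-linked reads. Only the interval of Acadl lies wholly above 0, that of Cpt1a reaches from -0.82 to 0.00, and Cpt2, Acadm, Ppara and Ppard have opposite signs in the 2 kinds of library.

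The changes were also compared between the 2 kinds of library. In 4 of 9 members the sign of the change differed between libraries with and without Y-linked reads. The same share was not counted over all genes, so the 4 are not read as a trait of the members. For Cpt2, Acadm and Ppara among them the unadjusted p of the limma interaction was 0.287, 0.595 and 0.526. For 2 of 9, Acadl and Ppard, the interaction had an unadjusted p under 0.05, against 12.0% of all genes, and after adjustment 0 of 9 did, against 1.47% of all genes. The reason for the difference between kinds was not tested, and within each group the kind coincided with the replicate numbers 1 and 2 or 3 and 4.

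Levels can be set against each other only per length, here as normalized reads per kilobase of exon (GENCODE M21, GRCm38). The length of a gene was the union of its annotated exons over all transcripts, from 2005 bases for Acadl to 8730 for Hadha. Where cells use a shorter transcript the value per kilobase is too low, and the transcripts in use were not examined. The order and the ratio below may thus depend on the annotation. In wild-type ASCs the order was Acadl 139 ± 49.7, Cpt1a 130 ± 17.4, Acadvl 60.1 ± 30.1, Acadm 44.5 ± 19.0, Hadha 39.9 ± 11.4, Ppard 33.9 ± 16.4, Cpt2 21.3 ± 15.2, Hadhb 10.7 ± 8.12 and Ppara 3.18 ± 3.18 reads per kilobase (SD, n = 4). Acadl and Cpt1a did not differ beyond their spread, nor did the neighbours from Acadvl to Ppara, whereas Cpt1a and Acadvl lay further apart than theirs. In mfn2-/- ASCs Acadl stood at 254 ± 112 and Cpt1a at 98.1 ± 15.3 reads per kilobase, followed by Acadvl at 70.7 ± 9.48, Ppard at 44.8 ± 12.3, Hadha at 43.9 ± 7.08, Acadm at 37.1 ± 9.91, Cpt2 at 13.8 ± 3.87, Hadhb at 5.09 ± 3.55 and Ppara at 3.32 ± 2.47. There Ppard, Hadha and Acadm did not differ beyond their spread, nor did Hadhb and Ppara, and the other neighbours lay further apart than theirs. Hadha and Hadhb, whose proteins are joined in one complex, were not read at like levels per kilobase of annotated exon. The ratio of Hadha to Hadhb per kilobase was 9.50, 6.46, 2.08 and 3.85 in wild-type and 7.73, 7.37 and 5.76 in the first 3 mfn2-/- libraries, with none for the library without Hadhb reads.

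Over the 8 libraries, the summed reads of the 10 genes were 0.0425% to 0.0629% of each library, lowest in wild-type replicate 1. The members did not move as one. As a description over 8 libraries that share depth and genotype, Pearson's r of log2 values is given for some pairs. It was 0.805 between Acadm and Hadha, 0.769 between Acadm and Hadhb and 0.706 between Cpt1a and Hadhb. Between Hadha and Hadhb it was 0.449, and between Cpt2 and Acadvl -0.849. After the group means were removed, the same pairs had 0.891, 0.779, 0.663, 0.629 and -0.873. The values with Hadhb include its 0 in mfn2-/- replicate 4, which weighs heavily on them. The genes most like Cpt1a in pattern among 5584 abundant genes were Sdpr (r = 0.989), Tsc22d3 (0.986) and Olfml2a (0.977). For Hadha they were Hmgxb4 (0.969), Zfp397 (0.961) and Dazap2 (0.959), and for Ppard Safb2 (0.952), Camta1 (0.947) and Zfp217 (0.942).

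The other genes of the pathway were read from lists of 64 symbols, of which 58 were tested. Of these 2 were higher and 1 lower in mfn2-/- ASCs, or 5.17% against the 10.4% of all genes, and their median log2 change was -0.0016 with 29 above 0 and 29 below. The calls were scattered. The lists of carnitine supply and exchange (4 tested, median -0.18), other mitochondrial β-oxidation enzymes (13, -0.33), PPAR partners and co-regulators (11, 0.30) and malonyl-CoA control (6, -0.59) each held 0 calls. Of uptake and activation genes 1 of 10 was higher (median 0.36), of peroxisomal β-oxidation genes 1 of 7 was lower (-0.58), and of PPAR target genes 1 of 8 was higher (0.44).

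**Figure D3:**
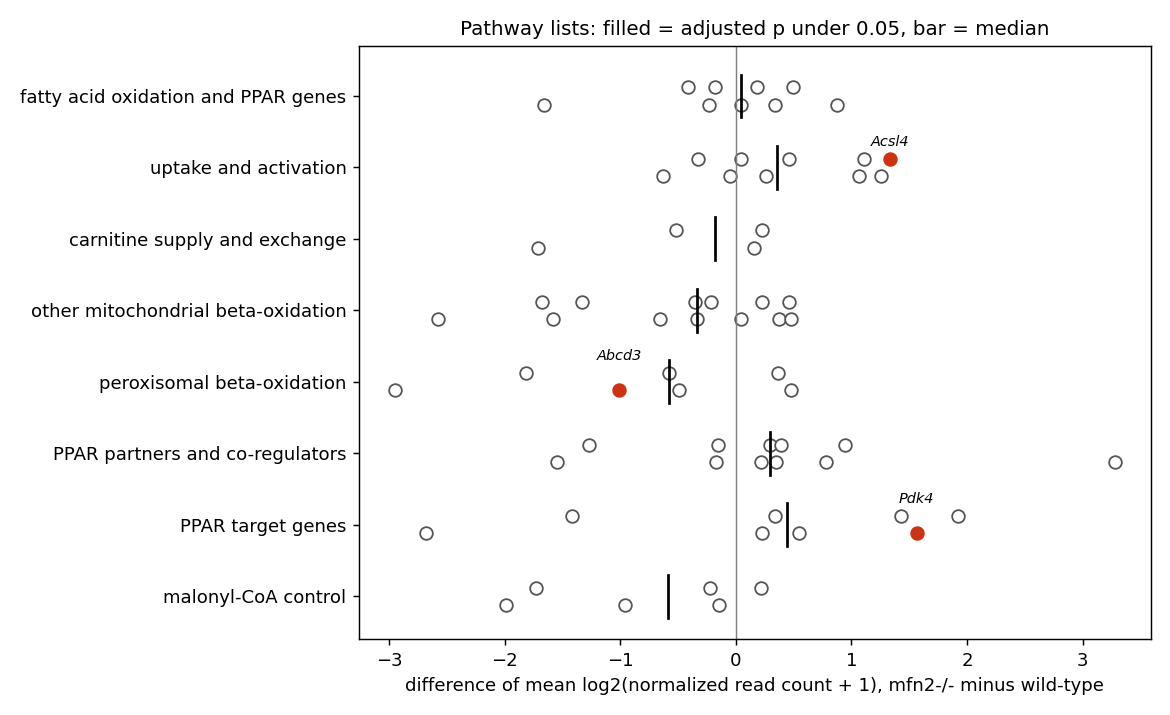
Log2 change of each tested gene in the members and in the 7 other pathway lists, one row of points per list, with a bar at the list median and a thin line at 0. Filled points are genes called by limma, which are Acsl4, Abcd3 and Pdk4, and none of the 9 tested members is filled.

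Pdk4, the PPAR target kinase that shuts pyruvate out of the citric acid cycle, rose. Wild-type libraries had 1358, 1303, 799 and 745 and mfn2-/- libraries 3192, 3368, 2962 and 2527, with no overlap. The log2 change was 1.56 (SE 0.22) with an adjusted p of 0.000715, and it was 2.09 in libraries with and 1.04 in libraries without Y-linked reads, a difference of 1.05 (SE 0.21, adjusted p = 0.0410 by limma). It was called in all 22 alternative settings. The 2 most abundant other targets tested were not called. Angptl4, an inhibitor of lipoprotein lipase, had a log2 change of 0.54 (adjusted p = 0.199) and Ucp2, a mitochondrial carrier, 0.34 (0.547), with 1.14 and -0.46 in the 2 kinds of library. With library weights, where 3037 of 11754 genes were called, both were called, Angptl4 at 0.55 (adjusted p = 0.0430 by limma) and Ucp2 at 0.81 (0.0104). Ucp3, the carrier of muscle, had too few reads to be tested and is named here after its values were seen. It was at 0, 0, 0 and 2.67 in wild-type and 15.3, 7.11, 6.63 and 29.3 in mfn2-/- ASCs, which are 0 to 5 against 9 to 23 reads, and without the filter on low values its log2 change was 3.26 with an adjusted p of 0.153.

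Abcd3, a transporter that carries acyl groups into peroxisomes, fell from 282, 253, 225 and 189 to 114, 126, 123 and 103, a log2 change of -1.01 (SE 0.30) with an adjusted p of 0.0470. The call was lost in 15 of the 22 settings, and among these were the 7 that left out any library other than mfn2-/- replicate 4, with adjusted p-values of 0.0769 to 0.112. Hsd17b4 and Scp2, enzymes of peroxisomal β-oxidation, had log2 changes of 0.47 (adjusted p = 0.718) and -0.58 (0.464).

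Acsl4, which links long polyunsaturated fatty acids to coenzyme A, rose from 88.7, 183, 218 and 143 to 407, 386, 531 and 249. The log2 change was 1.34 (SE 0.34) with an adjusted p of 0.0241, and the call was lost in 5 settings. The adjusted p was 0.0594 without wild-type replicate 4, 0.0636, 0.0630 and 0.0841 without mfn2-/- replicates 1, 2 and 3, and 0.0941 without the intensity trend. Acsl3, a related enzyme of lipid droplets, had a log2 change of 1.26 (adjusted p = 0.0959). The adjusted p of Acsl3 was 0.0261 without the 2 shallowest libraries and 0.00436 with library weights, settings that called 1567 and 3037 of all genes. The fatty acid receptor Cd36 had a log2 change of 1.11 (0.204). Without wild-type replicate 1, the lowest library at 38.7, the log2 change of Cd36 was 0.47. The carnitine transporter Slc22a5 had 0.16 (0.906) and the peroxisomal carnitine octanoyltransferase Crot -0.51 (0.552). Acaa2, a mitochondrial thiolase, had -0.65 (0.652) and Etfdh, which passes electrons of the dehydrogenases to ubiquinone, 0.22 (0.792). Of the genes that make malonyl-CoA, the inhibitor of CPT1, or use it, the 2 most abundant were Acaca at -0.14 (0.797) and Fasn at -0.22 (0.583). Acacb, which also makes it, is named here after its values were seen. Its log2 change was -0.96 (0.437), with 0.64 and -2.56 in libraries with and without Y-linked reads (adjusted p of the limma interaction 0.269).

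Among receptor partners, the corepressor Ncor1 and the coactivator Ncoa1 had log2 changes of 0.35 (adjusted p = 0.230) and 0.30 (0.473, but 0.0460 with library weights, which called 3037 of 11754 genes). The 4 genes that follow were chosen after their values were seen. Pparg, the third PPAR and the regulator of fat cell formation, had 0, 0, 0.817 and 0.534 in wild-type and 20.7, 30.0, 35.4 and 0 in mfn2-/- ASCs, which are 0 or 1 read against 31, 38, 48 and 0. Its log2 change was 3.27 (SE 1.33) with an adjusted p of 0.143. Ppargc1b, a coactivator of mitochondrial genes, had 38.7, 56.0, 64.5 and 42.2 against 82.7, 70.3, 74.4 and 123, without overlap, and a log2 change of 0.78 (SE 0.51) with an adjusted p of 0.383. Ppargc1a, its close relative, had 91.0, 94.4, 81.7 and 66.2 against 74.7, 84.5, 5.16 and 34.8, with a log2 change of -1.27 (SE 0.81) and an adjusted p of 0.366. Acad9, a dehydrogenase that also serves in complex I assembly, had 146, 130, 65.3 and 69.4 against 17.3, 48.2, 53.1 and 16.5, again without overlap, and its log2 change of -1.68 had an adjusted p of 0.128. Among all genes tested, 7.36% were separated upward like Ppargc1b and 12.2% downward like Acad9.

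**Figure D4:**
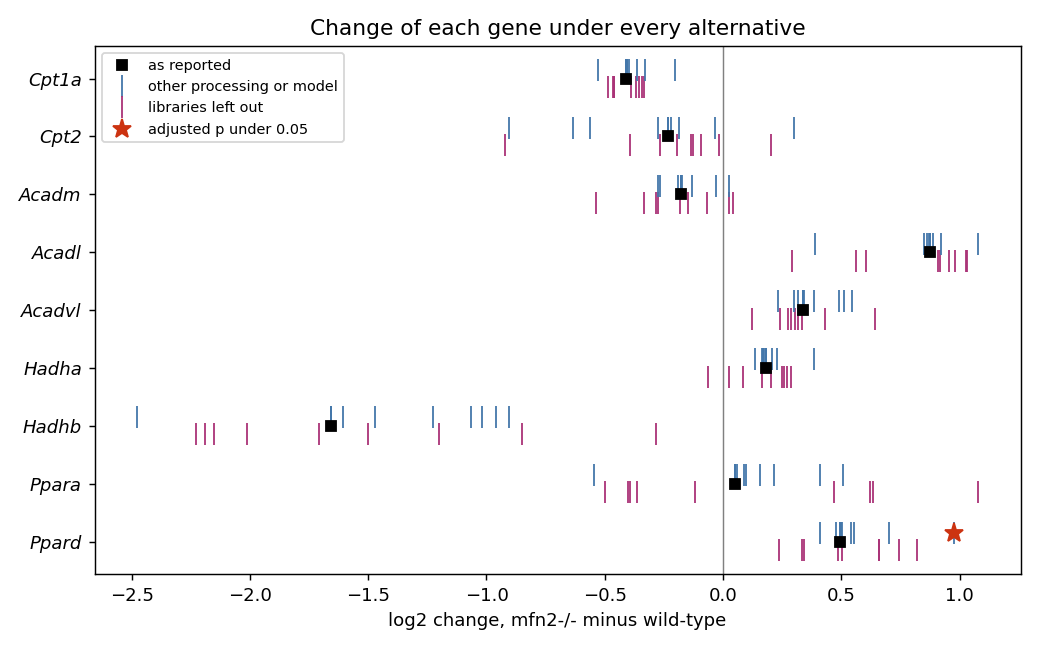
Log2 change of each tested member under the main setting and 22 alternatives, one row per gene. Cpt1a, Acadl, Acadvl, Hadhb and Ppard kept their sign in every setting run, Cpt2, Acadm, Hadha and Ppara did not, and the one setting with a called member (Ppard, library weights, 0.97) is marked.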

How the data were processed

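Libraries were made from total RNA of the sorted cells with a stranded low-input kit. The submitters' processing notes name Trim Galore, HISAT2, featureCounts, DESeq2 and the mm9 build, without versions. The deposited table holds a signal per listed gene in 8 columns, namely read counts that the authors had normalized with one size factor per library. Division by the smallest step of a library gave whole reads for 100% of its values (tolerance 0.02). The table has no coordinates. Exon lengths and overlaps came from GENCODE M21 (GRCm38) and promoters from RefSeq (GRCm38.p6), and were used by gene symbol only.

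The main test was limma 3.58.1 (R 4.3.3) on log2(value + 1), for genes whose mean over 8 libraries reached 10. It was two-sided, used an intensity trend without covariates, and was adjusted by Benjamini-Hochberg at 0.05. edgeR 4.0.16 (1158 genes called) and DESeq2 1.42.0 were run on the recovered reads. Transcript copies were searched with blastn 2.17.0. The fits were tested on simulated data. The members and lists were chosen with earlier results of these data known, and 2 genes of the pathway lists are not reported here and were left out of their counts. All members were named, with Mfn2 and Hif1a as checks, every called gene of the other pathway lists and the 2 most abundant uncalled genes of each. For Cpt1a, Hadha and Ppard the 3 most alike genes with a mean of at least 100 were named. Alternatives were other pseudocounts, filters, scalings, weights, terms and tools, and each library left out. Printed intervals are those of limma and rest on the spread between libraries, whereas the floor of 3 reads covers counting error only. The sources used here name no molecular identifiers.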

Additional observations from a re-analysis of the deposited data

Results flagged for a closer look

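Among 53 groups of 4 libraries compared for the named genes, 3 held a library whose gap to the others was large against the range of the group. Chance gives about 1 in 20, or about 3 of these groups, so the number flagged was no more than chance gives. Cpt1b had 7.33 normalized reads in mfn2-/- replicate 1, and the other 3 mfn2-/- libraries were at 0. Hadha had 200.1 in wild-type replicate 1, where its fellow wild-type libraries had 384 to 417, and that library had the fewest reads of all. Acaca, which makes malonyl-CoA, had 561 in mfn2-/- replicate 4 against 261 to 310 in the other mfn2-/- libraries, and that library had the fewest reads and detected genes of its group. The part of depth in these values was not tested.

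The change of Pdk4 differed between libraries with and without Y-linked reads, by 1.05 on the log2 scale with the same direction in both kinds. This rests on 2 libraries per group and kind.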

How the results depend on the processing

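Across 22 alternatives the 9 tested members gave 183 values with the direction and call of the main setting, 1 that became a call and 12 that changed sign, and the cause of these was not tested. The call was Ppard with library weights, the 1 member called in that setting. Among the 11754 genes tested the number called was 1217 in the main setting. It was 633 without the trend, 3037 with library weights and 670 to 1307 with each library left out (670 without wild-type replicate 3 and 749 without wild-type replicate 4). Those higher were 844 with upper-quartile scaling, 113 without the trend, 1398 with library weights and 235 to 470 with a library left out, of which mfn2-/- replicates 1, 2 and 3 gave 273, 260 and 312. Those lower were 1639 with library weights and 435 to 837 with a library left out. Signs changed for Cpt2 with quantile normalization (0.30) and in a range of -0.92 to 0.20 with a library left out. Acadm did so with upper-quartile scaling (0.026) and in a range of -0.54 to 0.040, Hadha in one of -0.066 to 0.29, and Ppara with a pseudocount of 0.1 (-0.55) and in a range of -0.50 to 1.08. Of the other pathway genes, Slc22a5 changed sign with a library left out (-0.11 to 0.42) and without the 2 shallowest (-0.0165). Acaa2 did so without those 2 (0.41), Crot with library weights (0.24), and Etfdh with library weights (-0.32) and with a library left out (-0.14 to 0.47). Hsd17b4 did so with library weights (-0.44), edgeR (-0.011), DESeq2 (-0.0468), a library left out (-0.39 to 0.92) and without the 2 shallowest (-0.51). Acaca did so with upper-quartile scaling (0.062). Cpt2 and Ppara had no value with a mean of at least 50, and DESeq2 gave 67 genes no adjusted p. Without the 2 shallowest libraries is an alternative chosen after the data had been seen.

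The groups share replicate numbers, but same-numbered libraries did not deviate together (correlations of -0.11 to 0.04), so the numbers were not taken as pairs. With the replicate block 1043 genes were called, 434 higher and 609 lower, and 0 members.

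Low counts limit Cpt1b, which had reads in 1 library, and Ppara, Hadhb and Cpt2, whose counts were as low as 0, 0 and 8 reads. The parts of depth and, for Cpt1b, of the overlap with Gm44502 in these counts were not tested. A single read was worth up to 2.27 normalized reads.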
